A study of Homo sapiens with 24 samples.

Results

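The 42 genes described here are interferon-stimulated genes and genes of MHC class I antigen presentation. They were chosen by symbol from a list, and the deposited values of their Ensembl transcripts were summed per gene. The choice was made with earlier results of these data known. Their counts beside the shares of all genes are thus a description and no independent test. All 42 were among the 17453 tested genes, out of 34834 genes with an assigned transcript. They were followed over 0, 8, 24 and 48 h in SK-MES1 cells, an established line of squamous cell lung carcinoma (LUSC), by RNA-Seq of 24 libraries in 8 groups of 3. After serum starvation for 3 hours, the cells of 1 arm received 2 ng/ml TGFβ1 and those of the other arm were left untreated. No interferon was added in either arm, according to the stated treatment. Libraries of the TGFβ arm at 0 h were taken at the start of stimulation, and all values come from this single cell line. Read depth lay between 46613589 and 77964234 estimated counts per library, so that counting error bears mainly on the genes with few counts named below.

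The data carried signs of the treatment and some limits that bear on these genes. The TGFβ targets SMAD7, PMEPA1, SKIL and TGFBI were higher in the TGFβ arm, with log2 differences averaged over 8, 24 and 48 h of 2.27, 4.11, 2.86 and 2.32 (adjusted p between 3.9e-29 and 8.5e-20 in limma). Of the epithelial and squamous markers, KRT5 and KRT6A never exceeded 3 estimated counts in a library, whereas TP63 averaged 9.29 TPM and KRT8 426 TPM in untreated cells at 0 h. The names of the deposited files hold 4 codes. In each arm an early code covers 0 and 8 h and a late code covers 24 and 48 h. The arms do not share codes, so arm differences at any single time, 8 h included, and the file codes cannot be told apart. The change from 24 to 48 h within an arm, and from 0 to 8 h, lies within a code. In bulk RNA, fewer cells that express a gene and less RNA per cell cannot be told apart.

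Interferons bind receptors at the cell surface, and Janus kinases then activate STAT proteins. STAT2 joins IRF9 in a complex that binds the interferon-stimulated response element (ISRE) in the promoters of antiviral genes, whereas the gamma-activated site (GAS) is bound by STAT dimers. Many of the induced proteins sense viral RNA, cut it, block its translation or trap virus particles, and others load peptides onto MHC class I molecules, which present them to cytotoxic T cells. In carcinoma cells the same genes are often expressed at a basal level without infection.

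The sequence that joins most of these genes stands close to their starts. In the RefSeq windows of GRCh38.p14 that run from 250 bases before to 50 bases after a start, 33 of the 42 genes had 42 windows. The ISRE core searched was GAAA followed after any 2 bases by GAAA, on both strands and counting overlapping matches. It was found in 28 of the 42 windows (66.7%), belonging to 24 genes, and in 3.57% of all 35116 windows. The GAS core TTCNNNGAA, which can overlap an ISRE match, was found in 13 of the 42 windows (31.0%) and in 7.66% of all windows. The palindromic SMAD element GTCTAGAC was in 0 of the 42 windows and in 0.202% of all windows. A match of letters is a description and does not show that a factor binds there. USP18, NLRC5, OAS2, IFIT2, HLA-E, IRF7, MX2, IFITM2 and OASL had no window.

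Shown first are 100 bases upstream of 2 genes with several matches, IFIT1 and IFI6, from base -160 to base -61 and on the strand of the gene. Capitals mark the ISRE core, read on either strand. The IFIT1 stretch is chr10:89392463-89392562 on the plus strand, and the IFI6 stretch is chr1:27672253-27672352 on the minus strand.
IFIT1: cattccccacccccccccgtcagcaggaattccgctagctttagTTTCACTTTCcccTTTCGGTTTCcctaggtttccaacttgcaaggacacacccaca
IFI6: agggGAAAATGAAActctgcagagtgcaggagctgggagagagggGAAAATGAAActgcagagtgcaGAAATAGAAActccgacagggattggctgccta
The IFIT1 stretch held 2 matches on the other strand, and the IFI6 stretch held 3 on the strand of the gene. The 30 bases around a match are shown for 6 further genes so that the core can be compared between antiviral genes and class I genes. These are RSAD2 (chr2:6877622-6877651), BST2 (chr19:17405741-17405770), DDX60 (chr4:168318786-168318815), SAMD9 (chr7:93118096-93118125), B2M (chr15:44711369-44711398) and TAP1 (chr6:32853819-32853848). Only a single match per line is in capitals. In the lines of BST2, B2M and TAP1 another match overlaps it and stays partly in lower case.
RSAD2: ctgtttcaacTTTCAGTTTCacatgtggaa
BST2: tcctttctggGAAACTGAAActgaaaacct
DDX60: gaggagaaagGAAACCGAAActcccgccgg
SAMD9: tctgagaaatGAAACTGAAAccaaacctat
B2M: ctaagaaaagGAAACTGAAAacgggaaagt
TAP1: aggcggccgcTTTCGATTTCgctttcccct
The cores shown for BST2, SAMD9 and B2M had the same 10 letters, and that of RSAD2 had them on the other strand. IRF1, IRF9, OAS1 and IFI35 had a GAS match but no ISRE match in their windows.

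**Figure D1:**
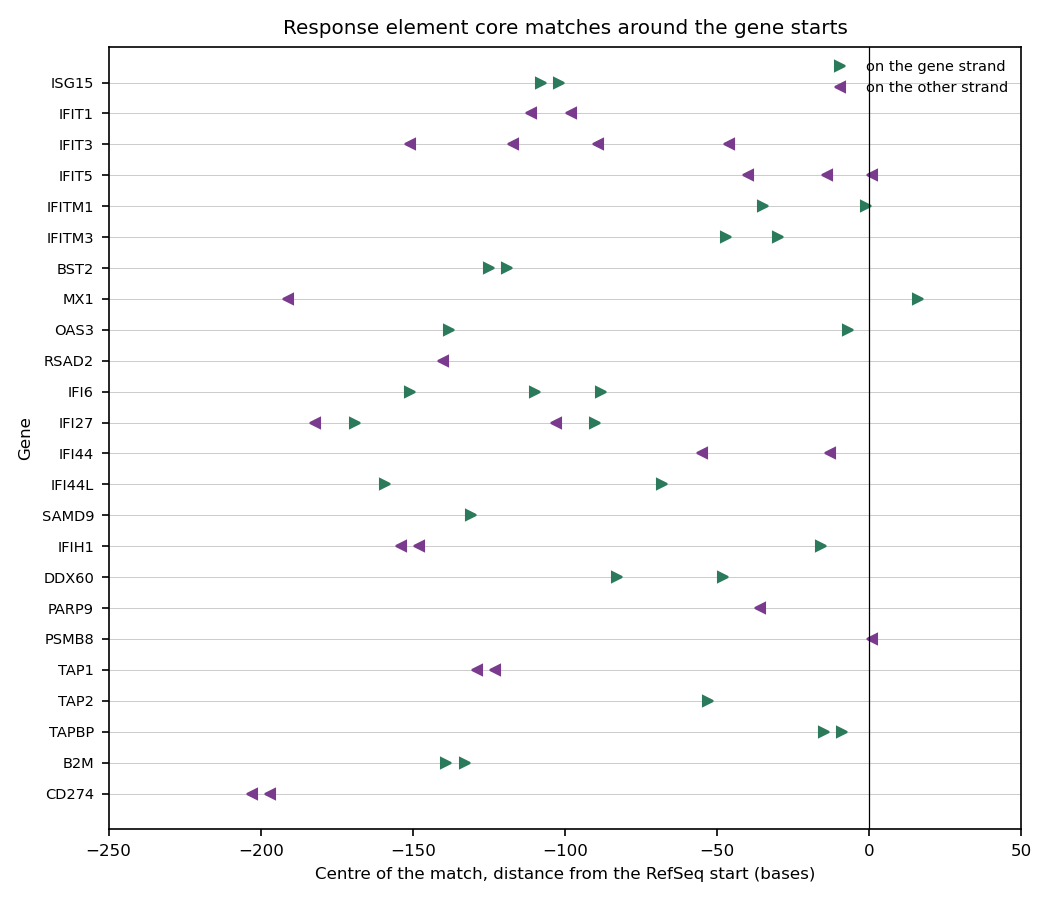
Centre of each ISRE core match (x axis, bases from the RefSeq start, with 0 at the start) for the 24 genes with a match (y axis), with the direction of the triangle giving the strand. Matches lay from 203 bases before a start (CD274) to 16 bases after it (MX1), and genes with several start windows show each match once per window.

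In untreated cells nearly all of these genes rose late, and in TGFβ-treated cells they rose less. Summed over the 31 genes that are neither class I genes, NLRC5 nor CD274, the level in the 3 untreated libraries was 1276, 1239 and 1309.5 TPM at the start, 2019.8, 2064 and 2081 TPM at 24 h and 5685, 5226 and 5019 TPM at 48 h. In the TGFβ arm the same sum was 1238, 1142 and 1303 TPM at 0 h, 1388, 1311 and 1354 TPM at 24 h and 2298, 2204 and 2276 TPM at 48 h. At 8 h it was 1377.5, 1386 and 1390.1 TPM without and 1256, 1232 and 1228 TPM with TGFβ. The libraries of the arms overlapped at 0 h and stood apart at 8, 24 and 48 h.

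Passing the threshold of an adjusted p of 0.01 (limma voom, Benjamini-Hochberg over all tested genes), 0 of the 42 genes differed between the arms at 0 h, where 0.0% of all genes passed. At an unadjusted p of 0.05, 800 genes but 0 of the 42 differed at 0 h. DESeq2 called 8 genes at 0 h, again with 0 of the 42. With TGFβ, 9 genes were lower at 8 h (7.25% of all tested genes were lower), 26 at 24 h (13.8%) and 33 at 48 h (16.4%), and 0 were higher at any of these times. The median log2 difference of the 42 genes fell over 8, 24 and 48 h (-0.14, -0.48 and -1.04), whereas over all tested genes it was -0.02, -0.02 and -0.01. In the F-test over the 3 times 34 genes passed, 33 of them with a lower average in the TGFβ arm (21.5% of all genes did) and SAMD9 with a higher one. At 48 h the 3 TGFβ libraries lay below the 3 untreated libraries in TPM for 39 genes (30.7% of all genes), the others being PSMB8, TAP2 and TAPBP. At 8 h the TGFβ libraries lay below in this way for 25 genes (31.2% of all genes) and at 24 h for 33 (23.2%). Scaled to 4 housekeeping genes used as reference genes, only 16 genes passed at 24 h, 4 higher and 12 lower, and 3 at 8 h, 1 higher and 2 lower. The shares of all genes passing with this scaling are not given here, so these counts cannot be set against them. That scaling moved the median of all genes by 0.35 at 24 and 48 h. Each of the 42 genes lay below the median of all genes at 48 h. A change of scaling moves all genes nearly alike, so this position cannot test the choice of scaling.

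**Figure D2:**
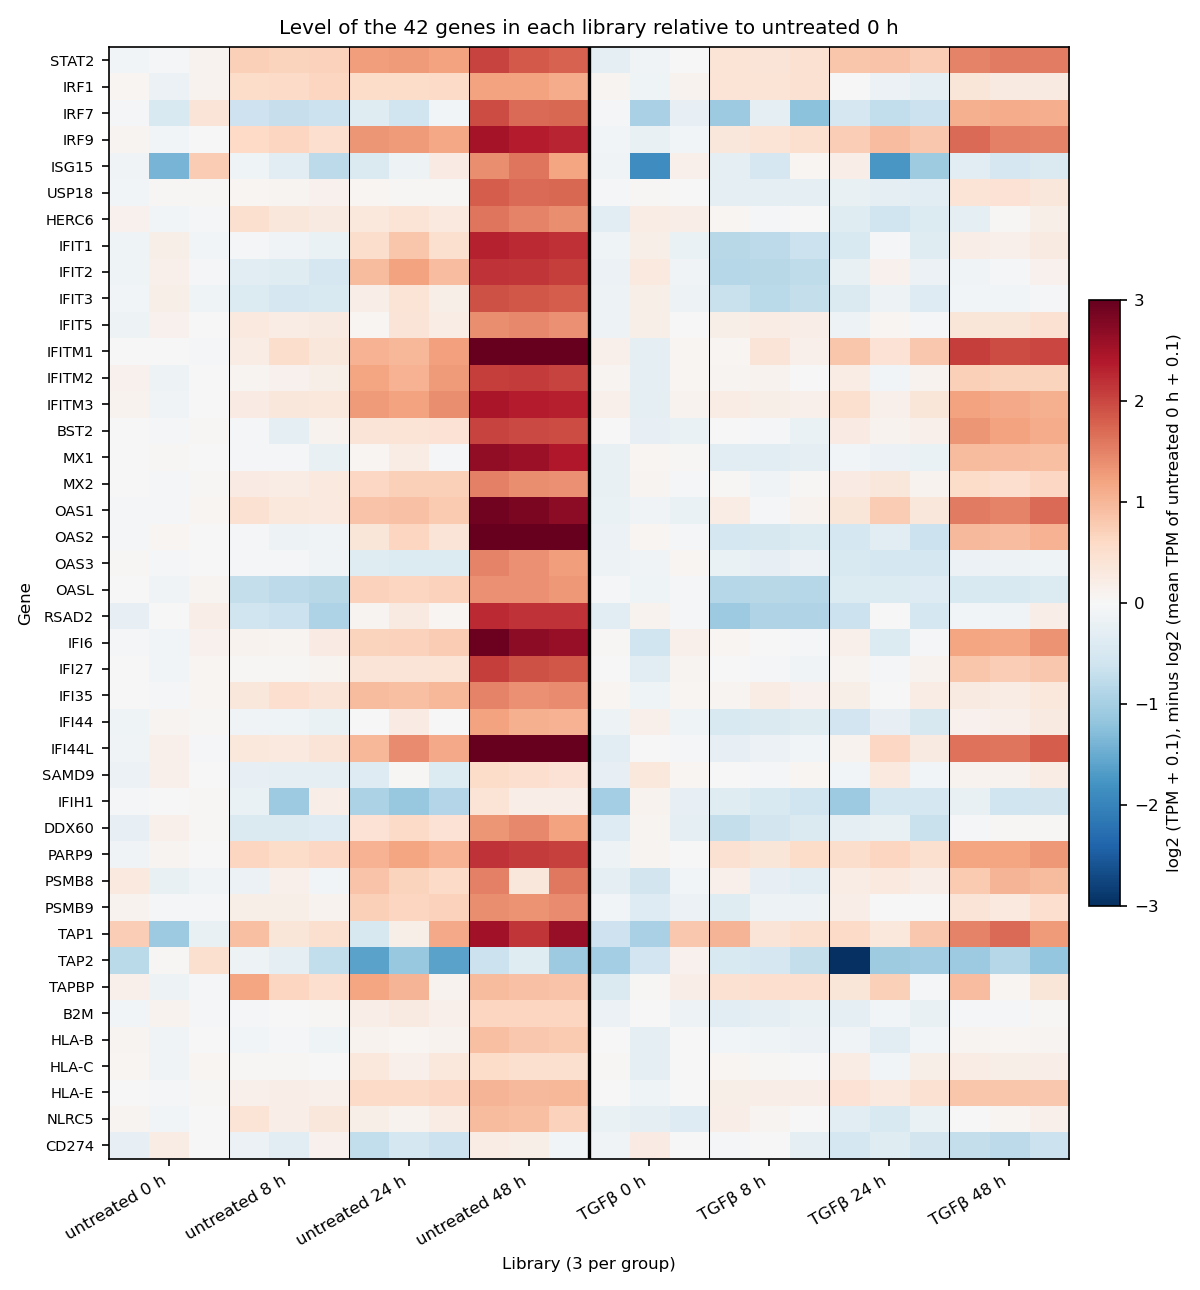
Level of the 42 genes (rows) in the 24 libraries (columns, 3 per group), as log2 (TPM + 0.1) minus the log2 of the mean of untreated cells at 0 h plus 0.1, with the colour scale ending at -3 and 3. The untreated libraries at 48 h are red in nearly every row, and the TGFβ libraries at 48 h are paler, whereas ISG15, TAP1 and TAP2 vary between replicates and had few counts.

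Among the transcription factors, IRF1, an activator of interferon-stimulated and class I genes, had 60.7, 60.9 and 57.1 TPM in untreated cells at 48 h and 34, 31.9 and 31.5 TPM with TGFβ. These libraries did not overlap, and the log2 difference was -0.91 ± 0.05 (SE, adjusted p = 8.3e-12, limma). In untreated cells IRF1 had risen from 26.3 ± 2.71 TPM at 0 h (mean ± SD, n = 3) to 39.5 ± 1.47 TPM at 8 h. IRF9, the DNA-binding partner of STAT2, reached 143, 129.9 and 125 TPM in untreated cells at 48 h and 82.3, 72.9 and 71.3 TPM with TGFβ, a log2 difference of -0.76 ± 0.06 (adjusted p = 1.7e-09, limma). STAT2 rose in both arms, from 75.6, 77.9 and 74.1 to 130.0, 115 and 109 TPM in untreated cells and from 56.9, 58.1 and 53.4 to 90.3, 93.4 and 93.2 TPM with TGFβ between 24 and 48 h. Its libraries did not overlap between the arms at either time, and the log2 difference at 48 h was -0.28 ± 0.04 (adjusted p = 1.8e-05, limma), which became 0.07 with the reference gene scaling. IRF7, an amplifier of interferon gene transcription, had 15.3, 12.8 and 13 TPM and 8.23, 8.47 and 8.43 TPM at 48 h and did not pass (adjusted p = 0.024, limma), with an average of only 127 estimated counts per library. From 24 to 48 h it rose in untreated cells by 2.32 and with TGFβ by 1.70 on the log2 scale.

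The ISG15 system attaches the ubiquitin-like protein ISG15 to other proteins. USP18, which removes ISG15 and also dampens receptor signalling, was the 1 gene of the 42 for which the difference between the arms changed from 0 to 8 h, a comparison that lies within file codes. Its level in the 3 untreated libraries was 6.37, 6.91 and 6.93 TPM at 0 h and 7, 7.16 and 7.32 TPM at 8 h, and in the TGFβ libraries 6.43, 6.93 and 6.84 TPM at 0 h and 5.54, 5.49 and 5.55 TPM at 8 h. The arms overlapped at 0 h and not at 8 h, and the change of the log2 difference was -0.34 ± 0.07 (adjusted p = 0.0023, limma). Of all genes 2.84% had such a fall from 0 to 8 h. The call was lost with the reference gene scaling and when only the libraries of 0 and 8 h were fitted. At 48 h USP18 had 24.1, 22.1 and 22.4 TPM in untreated and 9.03, 9.1 and 8.57 TPM in TGFβ-treated cells, a log2 difference of -1.34 ± 0.04 (adjusted p = 5.8e-16, limma). HERC6, a HECT-type ubiquitin ligase family member, had 25.7, 23.4 and 22.1 TPM and 6.91, 8.48 and 9.46 TPM at 48 h, again without overlap, and a log2 difference of -1.53 ± 0.08 (adjusted p = 2.7e-12, limma). For ISG15 itself the main transcript was not among the matched identifiers and only 25.0 estimated counts per library were assigned on average. Its 3.26, 3.76 and 2.82 TPM in untreated and 0.933, 0.797 and 0.84 TPM in TGFβ-treated cells at 48 h, a log2 difference of -2.01 ± 0.52 (adjusted p = 0.0033, limma), thus describe minor transcripts. This call was lost without any 1 of 3 libraries (adjusted p up to 0.018).

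The IFIT genes stand in a row on chromosome 10 and encode proteins that bind foreign RNA ends and stop its translation. IFIT1 had 46.4, 57.4 and 45.2 TPM at 24 h and 159, 153 and 148 TPM at 48 h in untreated cells, against 23.5, 31.2 and 24.9 TPM and 36.8, 35.6 and 38.6 TPM in TGFβ-treated cells. The arms were apart at both times, and the log2 difference grew from -0.87 ± 0.10 (adjusted p = 2.6e-07) to -2.01 ± 0.09 (adjusted p = 1.1e-13, limma). Already at 8 h IFIT1 had 30.9, 29.9 and 28.2 TPM without and 17.9, 18.6 and 20.4 TPM with TGFβ, its log2 difference of -0.56 ± 0.10 being the lowest of the 42 genes at that time (adjusted p = 2.3e-04, limma). IFIT2 had in TGFβ-treated cells 16.2, 22.6 and 17.1 TPM at 0 h and 16.9, 17.9 and 20.2 TPM at 48 h, and went from 16.9, 20.3 and 17.9 to 82.6, 81.3 and 78 TPM in untreated cells. At 48 h IFIT2 differed by -2.12 ± 0.09 and IFIT3 by -1.91 ± 0.08 on the log2 scale (adjusted p = 7.4e-14 and 1.0e-14, limma). IFIT5 had the value closest to 0 of these 4 genes, with 18.7, 19.1 and 18.3 TPM without and 9.09, 9.04 and 9.7 TPM with TGFβ and a log2 difference of -0.99 ± 0.07 (adjusted p = 1.1e-10, limma). IFIT genes are similar in sequence, so reads shared between them were divided by the quantification.

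The IFITM genes on chromosome 11 encode membrane proteins that hinder virus entry, and BST2 encodes tetherin, which holds budding particles at the membrane. IFITM3 was among the most abundant of the 42 genes, with 424, 402 and 461 TPM at 24 h and 954, 902 and 876 TPM at 48 h in untreated cells, and 246, 196 and 227 TPM and 401, 387 and 365 TPM with TGFβ. The arms did not overlap at these times, and the log2 differences were -0.92 ± 0.10 and -1.22 ± 0.09 (adjusted p = 1.3e-07 and 7.2e-10, limma). IFITM2 was close to this, with log2 differences of -1.03 ± 0.09 at 24 h and -1.31 ± 0.09 at 48 h (adjusted p = 9.8e-09 and 6.7e-11, limma). At 8 h neither passed, IFITM3 having 208, 221 and 217 TPM without and 205, 198 and 196 TPM with TGFβ. IFITM1 rose in both arms, from 29.6, 28.5 and 33.5 to 131, 122 and 120.4 TPM without and from 25.5, 19.3 and 24.7 to 60.1, 55.2 and 57 TPM with TGFβ. Its log2 difference at 48 h was -1.06 ± 0.08 (adjusted p = 2.5e-10, limma). BST2 had 38.8, 37.4 and 37 TPM and 23.7, 22.1 and 20.7 TPM at 48 h, a log2 difference of -0.73 ± 0.07 (adjusted p = 4.9e-08, limma). The 3 IFITM genes share much of their sequence, and their separate levels carry that uncertainty.

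Among the antiviral effectors, all 7 genes of the MX, OAS and RSAD2 group were lower with TGFβ at 48 h. MX1, a GTPase that traps viral nucleocapsids, had 52.5, 58.7 and 48.8 TPM at 24 h and 317, 295 and 266 TPM at 48 h in untreated cells. With TGFβ it had 47.2, 44.7 and 44 TPM and 97.5, 94.7 and 94 TPM. Each arm rose without overlap between the times, by 3.05 ± 0.07 without and 1.62 ± 0.07 with TGFβ on the log2 scale (adjusted p = 8.7e-18 and 9.2e-13, limma). MX2, its neighbour on chromosome 21, had 116, 107 and 106 TPM and 59.5, 57.6 and 62.9 TPM at 48 h and a log2 difference of -1.09 ± 0.04 (adjusted p = 2.1e-15, limma).

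OAS proteins make a second messenger that activates an RNase. OAS2 had the lowest log2 difference of the 42 genes at 48 h, -2.27 ± 0.06 (adjusted p = 3.1e-17, limma), from 63.2, 56.8 and 53.4 TPM in untreated and 11.8, 11.4 and 12.6 TPM in TGFβ-treated cells. At 8 h it had 5.78, 5.4 and 5.6 TPM and 4.17, 4.27 and 4.52 TPM, which did not overlap either (log2 difference -0.37 ± 0.08, adjusted p = 0.0016, limma). The call of OAS2 at 8 h was lost with the reference gene scaling, with length-scaled counts and without the first TGFβ replicate at 8 h. OAS1 reached 183, 174 and 158 TPM without and 72.2, 68.3 and 79.1 TPM with TGFβ at 48 h, a log2 difference of -1.21 ± 0.04 (adjusted p = 1.0e-15, limma). OAS3 differed late: at 24 h it had 24.1, 23.3 and 23.2 TPM without and 22.6, 21.4 and 21.4 TPM with TGFβ (adjusted p = 0.27, limma), and at 48 h 86.6, 80.4 and 74.2 TPM and 27.4, 28 and 28.3 TPM (log2 difference -1.45 ± 0.05, adjusted p = 3.2e-15, limma). OASL, a family member without that enzyme activity, followed another course, since it fell to 18.2, 17.3 and 16.8 TPM at 8 h in untreated cells from 30, 28 and 31.7 TPM at 0 h, and then rose to 48, 47.1 and 48.1 TPM at 24 h and 77, 78.1 and 74.2 TPM at 48 h. In the TGFβ arm it fell to 16.5, 16.8 and 16.5 TPM at 8 h, and had 22.5, 22.6 and 22.9 TPM at 24 h and 21.8, 21.8 and 22.5 TPM at 48 h. OASL at 48 h was thus below its level at 0 h with TGFβ, by -0.51 ± 0.05 on the log2 scale (adjusted p = 7.6e-09, limma), and above it without TGFβ, by 1.24 ± 0.04 (adjusted p = 9.6e-16, limma). RSAD2, which encodes viperin, was low, with 9.91, 9.43 and 9.54 TPM in untreated and 1.91, 1.89 and 2.36 TPM in TGFβ-treated cells at 48 h, but differed by -2.14 ± 0.11 on the log2 scale (adjusted p = 7.4e-13, limma).

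**Figure D3:**
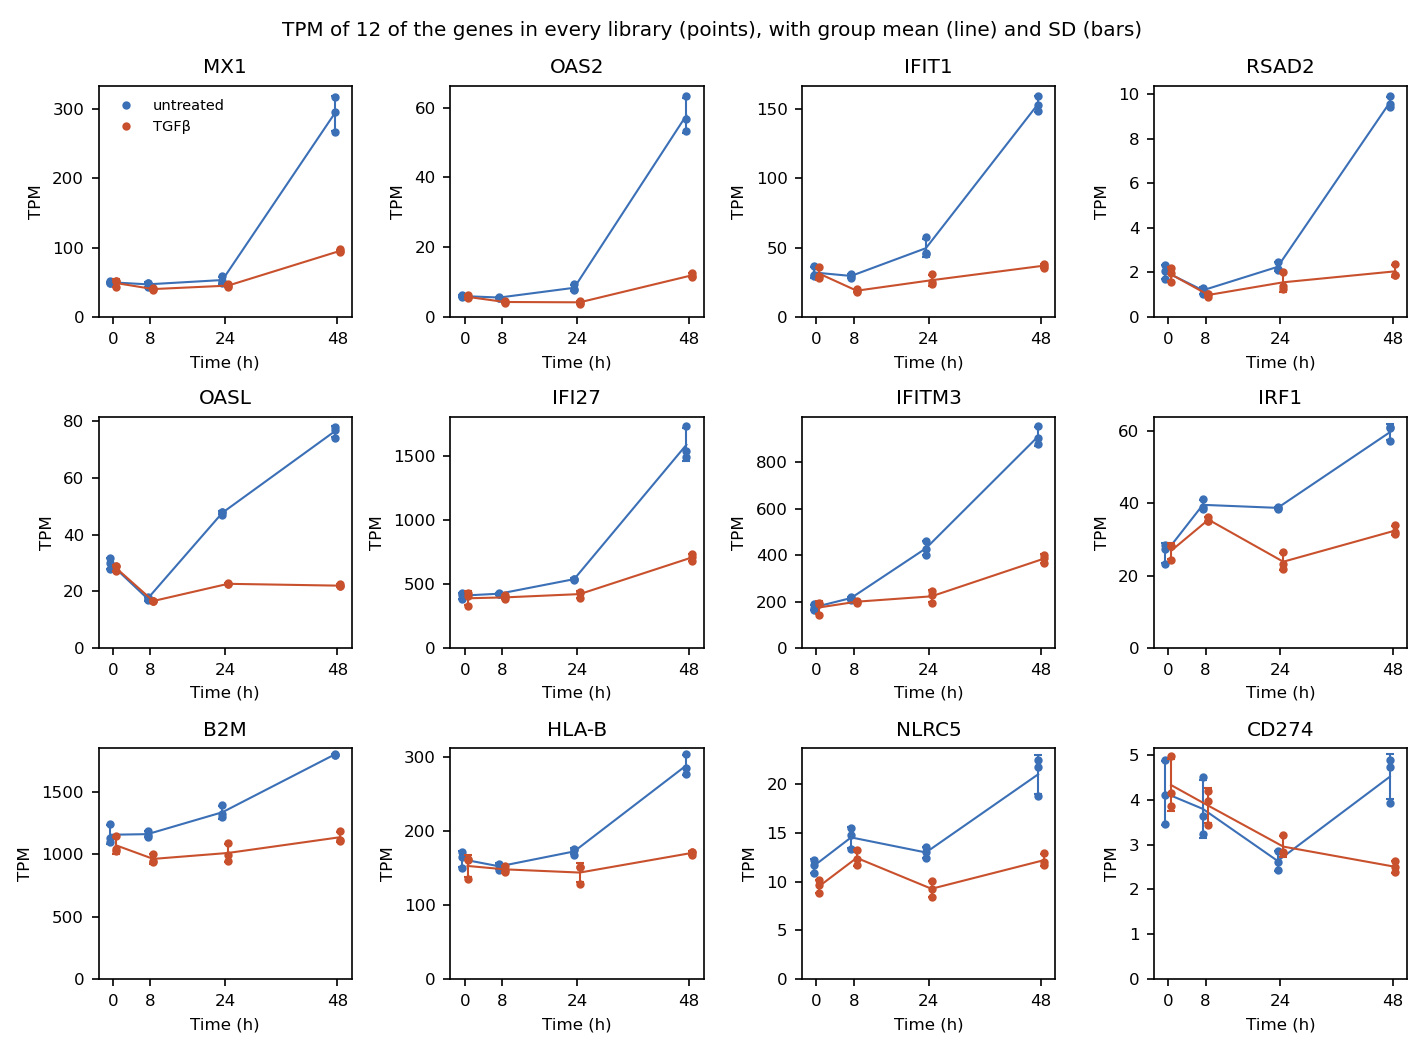
TPM (y axis) against time in hours (x axis) for 12 of the genes, with a point for each library, lines through the group means and bars of 1 SD (n = 3), blue for untreated and red for TGFβ-treated cells. MX1, OAS2, IFIT1 and RSAD2 separate mostly between 24 and 48 h, and OASL, IFITM3 and IRF1 already at 24 h. CD274 falls in both arms by 24 h and returns to its level at 0 h only in untreated cells.

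Of IFI6, IFI27, IFI35, IFI44, IFI44L and SAMD9, the 5 IFI genes were lower with TGFβ at 24 and 48 h. With the reference gene scaling IFI6, IFI44 and IFI27 did not pass at 24 h and IFI27 turned above 0 (0.039). The call of IFI27 at 24 h was also lost without any 1 of 4 libraries (adjusted p up to 0.0337) and that of IFI27 and IFI44 with only the compared groups. IFI27 was the most abundant at 1737, 1538 and 1494 TPM in untreated and 734, 679.5 and 713 TPM in TGFβ-treated cells at 48 h, a log2 difference of -1.11 ± 0.08 (adjusted p = 1.9e-10, limma). IFI6, whose upstream stretch with 3 matches is given above, had 414, 349 and 329.7 TPM and 123, 121 and 137 TPM, a log2 difference of -1.49 ± 0.13 (adjusted p = 8.9e-09, limma). IFI44L and its neighbour IFI44 on chromosome 1 had log2 differences of -1.37 ± 0.09 and -0.88 ± 0.09, and that of IFI35 was -1.15 ± 0.08 (adjusted p between 3.1e-11 and 9.3e-08, limma). IFI44L differed at 8 h too, with 15.6, 15.2 and 16.3 TPM without and 10.4, 10.9 and 11.6 TPM with TGFβ (log2 difference -0.50 ± 0.11, adjusted p = 0.0013, limma). The call of IFI44L at 8 h was lost with the reference gene scaling. SAMD9, an antiviral protein that restricts poxviruses, was among the 9 of the 42 genes with a log2 difference above 0 at 8 h. Its TPM at 8 h was 13.5, 13.1 and 13 without and 16, 15.6 and 16.7 with TGFβ, and at 48 h 23.5, 23 and 21.5 and 17.4, 17.2 and 18.7. The log2 differences of 0.34 ± 0.11 and -0.33 ± 0.11 did not pass at either time (adjusted p = 0.029 and 0.019, limma), but their change from 24 to 48 h did (change -0.66 ± 0.16, adjusted p = 0.0058, limma).

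DDX60, a helicase that assists RNA sensing, and PARP9, an ADP-ribosyltransferase that promotes interferon responses, were lower with TGFβ at 24 and 48 h. DDX60 had 30.9, 33.5 and 28.3 TPM without and 11.9, 12.5 and 12.6 TPM with TGFβ at 48 h, a log2 difference of -1.40 ± 0.09 (adjusted p = 4.3e-11, limma). PARP9 had 72.8, 69.8 and 67.5 TPM and 37.1, 37.1 and 39.9 TPM, a log2 difference of -0.82 ± 0.05 (adjusted p = 1.3e-11, limma). IFIH1, the RNA sensor MDA5, had only 41.9 estimated counts per library, and its main transcript was not among the matched identifiers. Its 1.64, 1.41 and 1.4 TPM and 1.02, 0.767 and 0.8 TPM at 48 h did not pass (adjusted p = 0.023, limma).

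**Figure D4:**
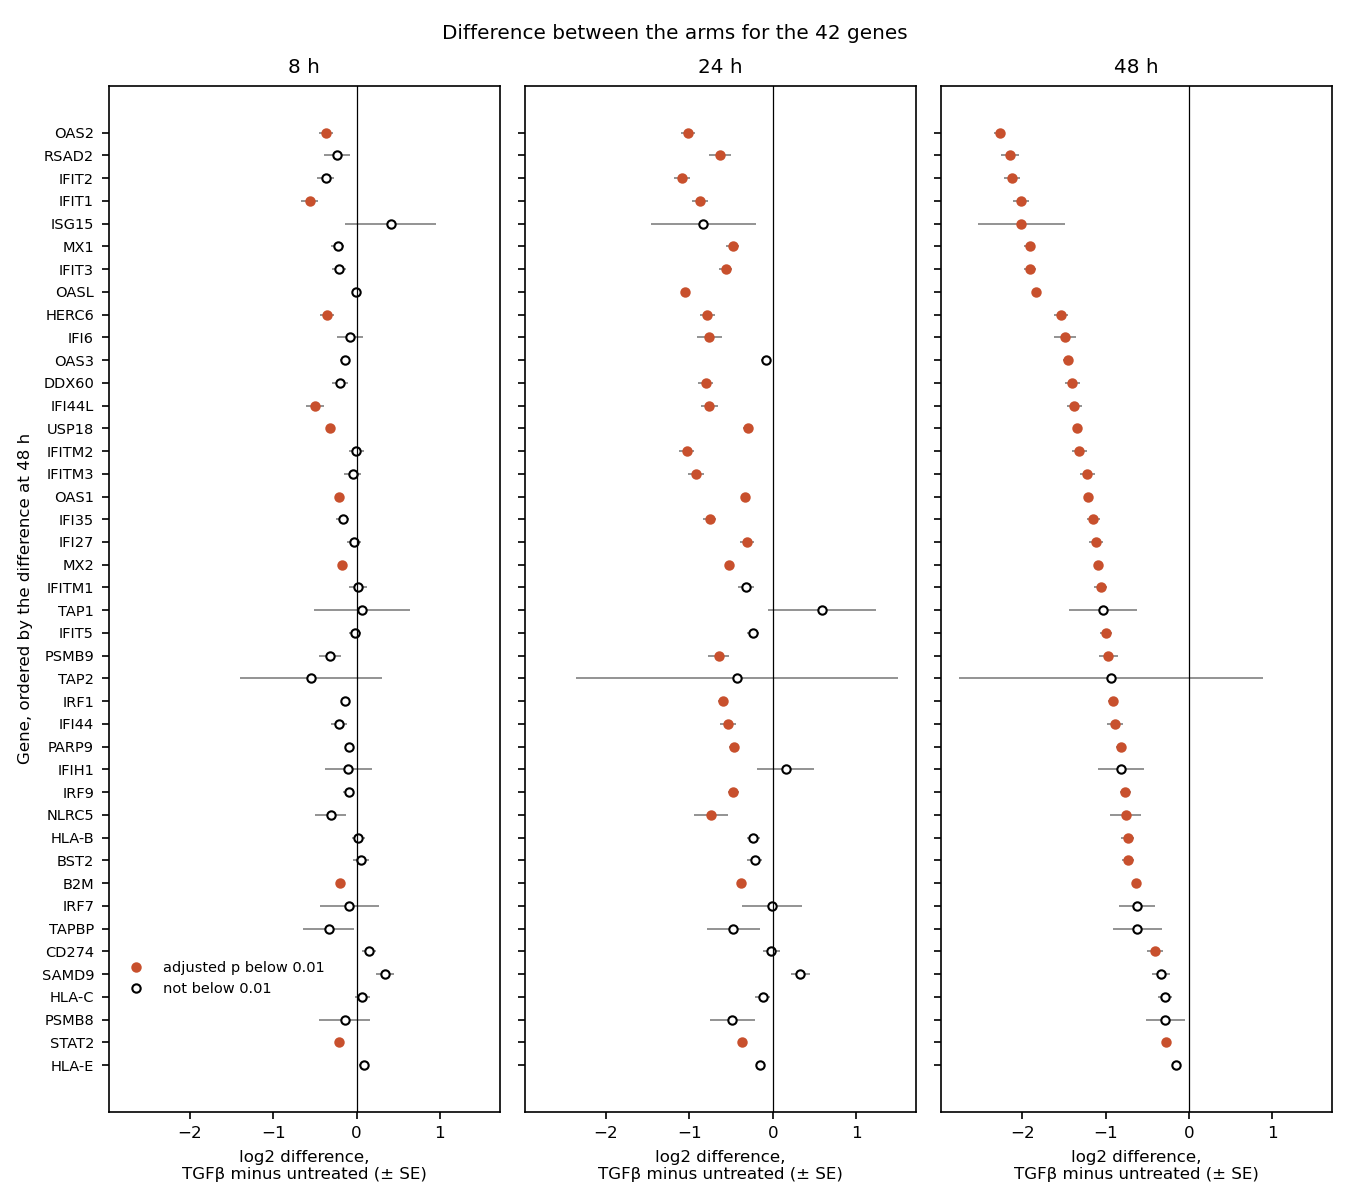
Log2 difference, TGFβ minus untreated, for the 42 genes (y axis, ordered by the value at 48 h) at 8, 24 and 48 h, with bars of 1 SE from limma and filled points where the adjusted p was below 0.01. The number of filled points grows from 9 to 26 to 33, all left of 0, and the widest bars belong to genes with few counts such as TAP2.

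Among the class I chains, B2M, the invariant chain of every class I molecule, had 1320.4, 1395 and 1294 TPM at 24 h and 1795, 1807 and 1795 TPM at 48 h in untreated cells, and 947, 1092 and 992 TPM and 1116, 1109 and 1184 TPM with TGFβ. The arms did not overlap from 8 h on, and the log2 difference went from -0.20 ± 0.05 at 8 h through -0.38 ± 0.05 at 24 h to -0.63 ± 0.05 at 48 h (adjusted p = 0.0022, 1.1e-06 and 2.8e-10, limma). The call of B2M at 8 h was lost with the reference gene scaling and without any 1 of 3 libraries (adjusted p up to 0.0184, limma). HLA-B had 303, 285 and 277 TPM without and 172, 167 and 172 TPM with TGFβ at 48 h, a log2 difference of -0.73 ± 0.08 (adjusted p = 6.9e-08, limma). The difference was smaller for HLA-C, with 777, 749 and 742 TPM and 617, 603 and 607 TPM, and for HLA-E, a ligand of natural killer cell receptors, with 31.5, 30.5 and 30.7 TPM and 27.5, 27.5 and 27 TPM. Although the libraries of both genes did not overlap at 48 h, neither passed (log2 difference -0.29 ± 0.09 for HLA-C and -0.15 ± 0.05 for HLA-E, adjusted p = 0.012 and 0.016, limma), and both were above 0 with the reference gene scaling (0.06 and 0.20). HLA genes vary between cell lines and resemble each other, so the counts depend on how well the reference transcripts match this line.

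The genes of peptide supply had few counts. PSMB8 and PSMB9 are subunits of the immunoproteasome, TAP1 and TAP2 form the peptide transporter, and TAPBP encodes tapasin, which tethers class I molecules to it. Each averaged fewer than 100 estimated counts per library, with means from 47.6 (PSMB8) to 86.0 (TAP2). PSMB9 was the 1 gene of these 5 that passed at 48 h, with 6.17, 5.95 and 6.26 TPM without and 3, 2.84 and 3.29 TPM with TGFβ and a log2 difference of -0.96 ± 0.11 (adjusted p = 5.2e-07, limma). Whether reads of these 5 genes were assigned to other transcripts, such as those of alternate MHC haplotypes, was not tested, so their levels and differences describe only the transcripts matched here. TAP1 had 1.65, 1.27 and 1.79 TPM and 0.755, 0.895 and 0.644 TPM at 48 h, which did not overlap but did not pass (adjusted p = 0.046, limma). PSMB8, with 2.81, 1.17 and 2.96 TPM and 1.64, 1.95 and 1.86 TPM, TAPBP and TAP2 overlapped between the arms. The difference of PSMB8 was -0.28 (adjusted p = 0.37, limma) and lay between -0.64 and -0.086 when 1 library was left out, passing only without the second untreated replicate at 48 h. On chromosome 6 PSMB9 (chr6:32844136-32859851, GENCODE 44) overlaps TAP1 (chr6:32845209-32853816) and PSMB8 (chr6:32840717-32844679), which lie on the opposite strand, and whether the counting used strand is not given in the sources used here.

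NLRC5, the transactivator of class I genes, had 22.5, 21.8 and 18.8 TPM in untreated and 11.7, 12 and 12.9 TPM in TGFβ-treated cells at 48 h, without overlap. Its log2 difference was -0.74 ± 0.20 at 24 h and -0.76 ± 0.18 at 48 h (adjusted p = 0.005 and 0.002, limma), and it already lay at 12.2, 10.9 and 11.7 TPM against 10.1, 9.66 and 8.82 TPM at 0 h, also without overlap. The call at 24 h was lost without any 1 of 4 libraries (adjusted p up to 0.0403) and with only the compared groups, that at 48 h without either of 2 libraries (adjusted p up to 0.0122), and both with the reference gene scaling. CD274, which encodes the checkpoint ligand PD-L1, had 2.43, 2.86 and 2.62 TPM at 24 h and 4.88, 4.72 and 3.93 TPM at 48 h in untreated cells, and 2.83, 3.22 and 2.81 TPM and 2.49, 2.38 and 2.63 TPM with TGFβ. The arms overlapped at 24 h and stood apart at 48 h (log2 difference -0.41 ± 0.10, adjusted p = 0.0017, limma), and CD274 was below its level at 0 h with TGFβ by -0.41 ± 0.10 (adjusted p = 1.0e-03, limma). In mean TPM the arms stood wider apart for CD274 at 48 h than in this count-based difference, the untreated level being 1.80-fold that with TGFβ. Untreated cells rose 1.71-fold in mean TPM from 24 to 48 h but ended at 1.09-fold their level at 0 h. They too thus lay lower at 24 h than at 0 h. With TGFβ the log2 change of CD274 from 24 to 48 h was 0.09 and did not pass. The call of CD274 at 48 h was lost without 1 library (adjusted p = 0.014) and with the reference gene scaling.

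The change from 24 to 48 h asked how the arms diverged within the same file codes. In untreated cells 38 of the 42 genes rose and 0 fell (14.8% of all genes rose), with a median log2 change of 1.03 against 0.00 over all genes. In TGFβ-treated cells 22 rose and 0 fell (12.4% of all genes rose), with a median of 0.44. With the reference gene scaling 41 genes rose in untreated cells (54.8% of all genes) and 37 in TGFβ-treated cells (53.1%). The change of the arm difference from 24 to 48 h passed for 23 genes, all downward (5.61% of all genes). The lowest of these were RSAD2 with -1.51 ± 0.17, MX1 with -1.43 ± 0.10, OAS3 with -1.37 ± 0.08, IFIT3 with -1.34 ± 0.11 and OAS2 with -1.25 ± 0.10 (adjusted p between 2.3e-10 and 2.2e-06, limma). All 4 IFIT genes and all 7 genes of the MX, OAS and RSAD2 group were among the 23. Of the 5 peptide supply genes 0 were, but these averaged fewer than 100 estimated counts per library. Their median change of the arm difference was -0.32, so their lack of calls cannot be set against the other groups. In mean TPM from 24 to 48 h, MX1 rose 5.50-fold in untreated and 2.11-fold in TGFβ-treated cells. OAS2 rose 6.89-fold and 2.83-fold in the same arms. The mean estimated counts of MX1 rose more, from 2690 to 22799 without and from 1838 to 5041 with TGFβ. The log2 changes rest on counts, which are not corrected for effective length as TPM is, so the 2 sizes can differ. STAT2 and HLA-E changed by 0.52 ± 0.04 and 0.36 ± 0.05 without and by 0.61 ± 0.04 and 0.36 ± 0.05 with TGFβ, where the difference between the arms in this change did not pass (0.09 ± 0.06 and 0.00 ± 0.07, adjusted p = 0.39 and 1, limma).

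**Figure D5:**
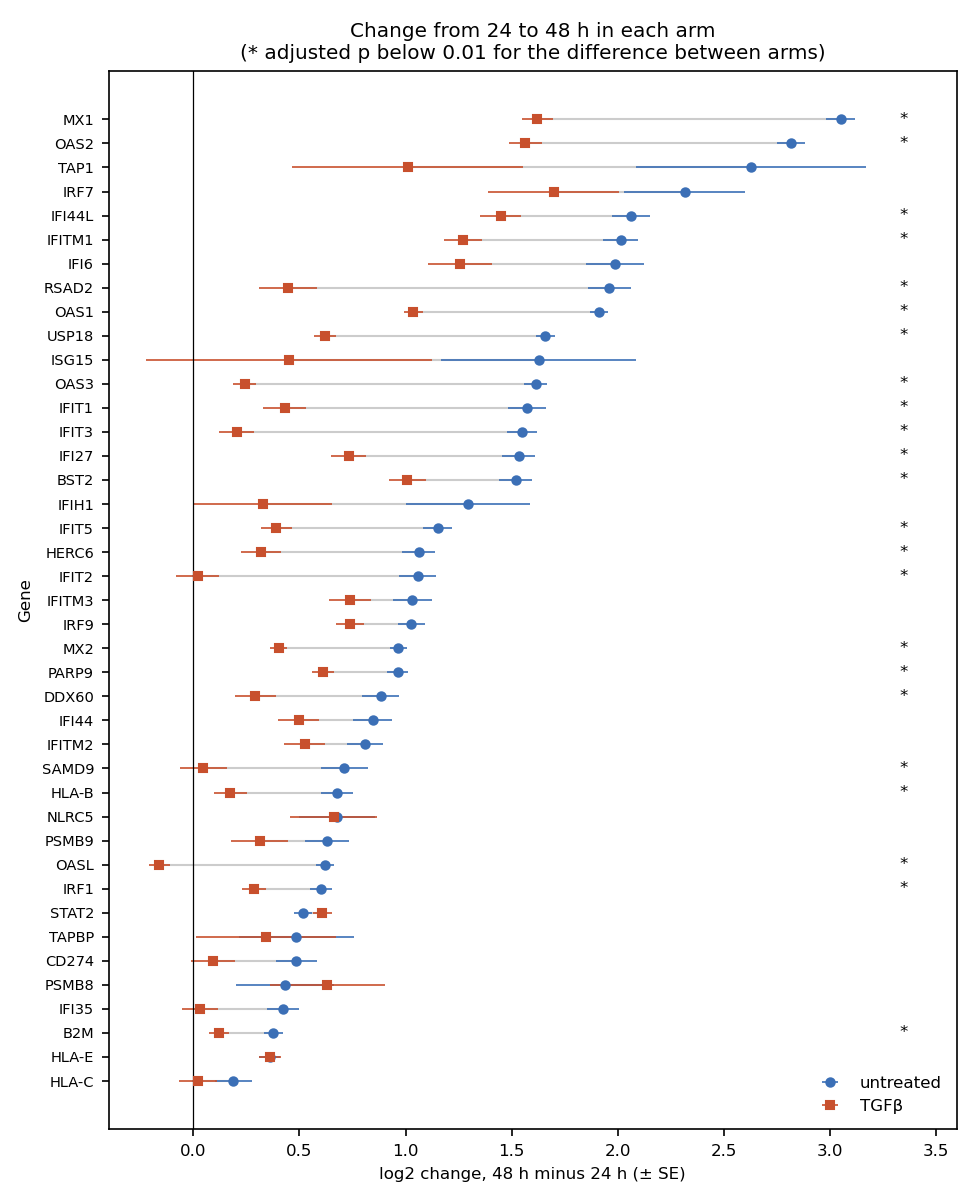
Log2 change from 24 to 48 h with bars of 1 SE from limma (x axis) for 41 of the genes (y axis), blue circles for untreated and red squares for TGFβ-treated cells. TAP2 is left out because its SE was 1.69 and 2.04, asterisks mark the 23 genes with an adjusted p below 0.01 for the difference between the changes, and at each asterisk the square lies left of the circle.

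Early changes went both ways, as they did over all tested genes. From 0 to 8 h, 7 of the 42 genes rose (13.2% of all genes) and 5 fell (12.7%) in untreated cells, and 6 rose (17.5%) and 10 fell (16.3%) in TGFβ-treated cells. The factors STAT2, IRF1 and IRF9 rose in both arms, by 0.71, 0.50 and 0.56 without and by 0.59, 0.36 and 0.53 with TGFβ on the log2 scale. OASL, RSAD2, IFIT2, IFIT3 and DDX60 fell in both arms, between -0.85 and -0.43 without and between -0.98 and -0.50 with TGFβ. IFIT1, OAS2, USP18, OAS3 and B2M passed in this direction in the TGFβ arm, and 1 gene, USP18, passed the test of the difference between the arms. From 0 to 48 h, which crosses the file codes, 39 genes rose in untreated cells (28.0% of all genes) and 21 rose in TGFβ-treated cells (29.8%), where OASL and CD274 fell. IFIH1, TAP2 and CD274 did not pass in untreated cells.

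Upstream of these genes, 6 of the 7 interferon genes on the list were close to absent, and other interferon genes were not examined. IFNB1, IFNG, IFNK, IFNL1, IFNL2 and IFNL3 had at most 5.0 estimated counts in any library. Interferon epsilon, IFNE, averaged 1.7 ± 0.0354 TPM in untreated and 0.91 ± 0.0961 TPM in TGFβ-treated cells at 48 h, and its log2 difference averaged over 8, 24 and 48 h was -0.69 ± 0.09 (adjusted p = 2.6e-06, limma). Over the list of 20 interferon ligands, receptors, kinases and feedback regulators, 14 were tested, of which 4 were higher and 5 lower in the F-test with a median of 0.00, where 21.0% of all tested genes were higher and 21.5% lower. IFNGR2, the second chain of the interferon gamma receptor, was higher by 0.63 ± 0.12, and the feedback inhibitor SOCS3 and the kinase JAK2 were lower by -0.48 ± 0.04 and -0.45 ± 0.05 (adjusted p between 3.7e-09 and 1.4e-04, limma). The receptor chains IFNAR1 and IFNAR2 had 46.9 ± 0.249 and 28.5 ± 1.51 TPM without and 47 ± 1.07 and 30.9 ± 0.952 TPM with TGFβ at 48 h.

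Of 14 genes of nucleic acid sensing 13 were tested, and 9 were lower and 0 higher in the F-test (21.5% and 21.0% of all tested genes), with a median average difference of -0.23. The lowest were DHX58 with -0.76 ± 0.06, STING1, the adaptor of cytosolic DNA sensing, with -0.72 ± 0.04, the RNA receptor TLR3 with -0.62 ± 0.09 and the kinase IKBKE with -0.40 ± 0.05 (adjusted p up to 4.6e-06, limma). STING1 had 41.9, 38.8 and 42.3 TPM without and 24.6, 20.1 and 23.1 TPM with TGFβ at 24 h, without overlap. Of 35 further interferon-stimulated genes all were tested, and 26 were lower and 5 higher, with a median of -0.42, against the same shares of all genes. The chemokines CXCL10 and CXCL11, which attract T cells, had the lowest average differences, -2.75 ± 0.18 and -1.77 ± 0.15, followed by RTP4 with -1.14 ± 0.07 and CMPK2 with -1.01 ± 0.07 (adjusted p up to 1.5e-09, limma). CXCL10 had 10.1, 12.7 and 10.2 TPM in untreated and 0.703, 0.678 and 0.758 TPM in TGFβ-treated cells at 48 h.

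Of 16 further class I genes 15 were tested, and 8 were lower and 4 higher with a median of -0.21 (21.5% and 21.0% of all tested genes). PSMB10, the third immunoproteasome subunit, differed by -0.52 ± 0.09, the tapasin relative TAPBPL by -0.51 ± 0.04, HLA-F by -0.42 ± 0.06 and the proteasome activator PSME2 by -0.32 ± 0.03 (adjusted p up to 3.0e-05, limma). Unlike the 5 peptide supply genes above, PSMB10 was well measured, at 103, 100.2 and 96.3 TPM without and 60.1, 54.4 and 50.9 TPM with TGFβ at 48 h. Class II presentation was low, and 4 of its 8 genes were tested, of which CIITA, the class II transactivator, CD74 and HLA-DPA1 were lower by -1.25 ± 0.07, -0.98 ± 0.06 and -0.94 ± 0.21 and HLA-DRB1 was higher by 0.18 ± 0.05 (adjusted p up to 0.0019, limma). The calls of HLA-F and PSME2, and that of JAK2 above, were lost with the reference gene scaling. HLA-DRB1 lost its call when libraries were scaled by totals or upper quartiles. Among 12 checkpoint and natural killer cell ligands, 6 were higher and 2 lower (21.0% and 21.5% of all genes), with PDCD1LG2 (PD-L2) at 0.64 ± 0.07, ULBP1 at 0.58 ± 0.04, CD276 at 0.53 ± 0.05 and PVR at 0.45 ± 0.03 (adjusted p up to 1.8e-07, limma).

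Markers of other cells were looked at beside these values. The leukocyte marker CD3E had 0 estimated counts in every library, and the summed level of 6 leukocyte markers was between 12.9 and 15.0 TPM in untreated and between 10.03 and 10.73 TPM in TGFβ-treated cells at 48 h. At 0 h it was between 30.9 and 42.8 TPM over both arms. The summed level of 4 fibroblast markers moved with the 42 genes, from 17.1 to 18.4 TPM at 24 h to 46.0 to 46.4 TPM at 48 h in untreated and from 14.9 to 17.1 TPM to 18.9 to 23.9 TPM in TGFβ-treated cells. Of these 4 markers, DCN and LUM had 12.2 ± 1.13 and 23.3 ± 0.885 TPM in untreated cells at 48 h, and 1.47 ± 0.327 and 9.19 ± 1.71 TPM with TGFβ. PDGFRA had 10.7 ± 0.154 and 10.7 ± 0.565 TPM in the same groups, and COL1A2 at most 0.221 TPM in any library. The summed level of 3 endothelial markers, of which CDH5 had at most 8.0 estimated counts in a library, was between 2.74 and 3.18 TPM without and between 3.37 and 4.54 TPM with TGFβ at 48 h. The summed level of 8 epithelial and squamous markers rose as well, to between 2207 and 2279 TPM without and between 1987 and 2029 TPM with TGFβ at 48 h. The part of these changes in the values of the 42 genes was not tested.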

How the data were processed

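RNA-Seq of 24 SK-MES1 libraries was analysed. The authors quantified the reads with kallisto 0.43.0 against Ensembl 79 transcripts of GRCh38 and deposited a table for each library, in which every row is 1 of 173259 transcripts. As deposited, an estimated count is the number of reads that kallisto expected to come from a transcript, without normalization and often with decimals. The deposited TPM corrects this count for effective length and makes library totals equal. Effective length, the other column the authors deposited, entered only the alternative with length-scaled counts.

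Transcripts were assigned to genes with GENCODE 44 (155518 of 173259, 89.8%), and the others were left out. The main transcript in GENCODE of ISG15, IFIH1, PARP9, B2M and NLRC5 was not matched, so that their sums cover other transcripts. Gene sums of counts were rounded, and 17453 genes with at least 10 in 3 libraries were tested with limma 3.58.1 (voom, TMM factors, 1 mean per group, R 4.3.3) at a Benjamini-Hochberg adjusted p of 0.01. edgeR 4.0.16 (quasi-likelihood) and DESeq2 1.42.0, other scalings, filters and units, a replicate block and fits without each library were alternatives, and the scripts were tested on simulated data. Levels are TPM (mean ± SD, n = 3, or each library). Promoter windows are from RefSeq (GRCh38.p14). Python 3.11.15 was used.

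The 42 genes and the other lists were chosen with earlier results of these data known. All 42 are named. From the other lists, up to 4 genes with the largest average difference among those passing the F-test are named, with TGFβ targets and genes near absence, and some items are not reported here. IFNAR1, IFNAR2 and the named cell type markers were chosen after their values were seen. The study describes its replicates as biological, and p-values measure the spread between these libraries. Replicate counts differed by more than sampling noise in all 24 pairs (chi-square per gene from 3.17 to 60.5). The highest values came from pairs with TGFβ replicate 2. These were 60.46 and 40.21 at 0 h (16.76 for the other pair) and 47.05 and 35.64 at 24 h (6.74 for the other pair). In untreated cells at 24 h, pairs with replicate 2 gave 20.09 and 18.92, and the other pair 4.13. The reason was not tested.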

Additional observations from a re-analysis of the deposited data

Results flagged for a closer look

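For 23 of the 42 genes the difference between the arms was not the same at 24 and 48 h, by the test of the change itself (limma, adjusted p below 0.01). The change in the log2 difference was -1.51 for RSAD2, -1.43 for MX1, -1.37 for OAS3, -1.34 for IFIT3, -1.25 for OAS2, -1.14 for IFIT1, -1.04 for IFIT2 and -1.04 for USP18. It lay closer to 0 for OAS1 (-0.87), IFI27 (-0.80), OASL (-0.78), IFIT5 (-0.76), IFITM1 (-0.74), HERC6 (-0.74), SAMD9 (-0.66), IFI44L (-0.61), DDX60 (-0.59), MX2 (-0.57), BST2 (-0.51), HLA-B (-0.50), PARP9 (-0.35), IRF1 (-0.32) and B2M (-0.25). With 1 library left out, the call was lost in 18 of the 24 fits for B2M (adjusted p up to 0.0287), in 7 for IRF1 and SAMD9, in 6 for BST2, in 3 for DDX60 and in 1 for HLA-B and IFI44L. From 0 to 8 h the difference between the arms changed for USP18, by -0.34 on the log2 scale. Groups held 3 libraries each, so single libraries were not tested for standing apart.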

How the results depend on the processing

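ISG15, IFIH1, TAP1, TAP2, TAPBP, PSMB8 and PSMB9 averaged under 100 estimated counts per library, which limits their precision. With another tool, scaling, filter, unit or set of libraries, the number of the 42 genes passing the F-test lay between 32 and 36 (34 as reported) and at 48 h between 31 and 40 (33). At 0 h it was 0 in all settings. The number at 8 h (9) was 3 with the reference genes, 5 with length-scaled counts and 16 with only the compared groups in the fit. At 24 h (26) it was 16 with the reference genes. In the TGFβ arm the reference genes gave 37 from 24 to 48 h (22) and 36 from 0 to 48 h (23). The change of the arm difference from 0 to 8 h (1) passed for 2 genes with DESeq2, library totals, upper-quartile factors, at least 50 counts and the replicate block, and for 0 with the reference genes and with only the compared groups. The cause of these shifts was not tested. Apart from those given above for 24 to 48 h, shares of all genes in these settings are not given. The counts here thus show only how far the calls depend on the setting.

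With the reference genes, the average log2 difference turned above 0 for IRF7 (0.026), IFIH1 (0.011), TAP1 (0.14), HLA-C (0.15), HLA-E (0.19) and CD274 (0.17). So did the difference at 48 h of STAT2 (0.069), SAMD9 (0.016), PSMB8 (0.064), HLA-C (0.063) and HLA-E (0.20), and, among the genes that had passed at 24 h, the difference at 24 h of USP18 (0.048), OAS1 (0.018) and IFI27 (0.039). Over all 42 genes the number below 0 went from 39 to 27 at 24 h and from 33 to 25 at 8 h. HLA-C and HLA-E passed at 48 h with DESeq2, library totals, upper-quartile factors and both log2 TPM units.

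Leaving out each library in turn gave 32 to 36 genes in the F-test, 0 each time at 0 h, 5 to 10 at 8 h, 24 to 30 at 24 h and 31 to 36 at 48 h. The 5 at 8 h came without the first or the second TGFβ replicate at 8 h. The change of the arm difference passed for 1 to 2 genes from 0 to 8 h and for 17 to 25 from 24 to 48 h. In untreated cells 10 to 13 genes passed from 0 to 8 h, 36 to 38 from 24 to 48 h and 36 to 39 from 0 to 48 h. In TGFβ-treated cells these numbers were 13 to 16, 21 to 25 and 21 to 24. TAP1, with averages from -0.35 to 0.088 in these fits, was above 0 without the third untreated replicate at 24 h.

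The main fit did not pair libraries by replicate number. The correlation of deviations between the arms was over 0.1 in 4 of 12 pairs (from -0.047 to 0.301). These were replicates 1 and 2 at 0 h (0.203 and 0.296) and at 24 h (0.144 and 0.301). Whether libraries of the same number shared an effect at these times was not tested. The replicate block gave 36 genes in the F-test, 11 at 8 h, 29 at 24 h, 35 at 48 h and 24 for the change from 24 to 48 h.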
